A study of Homo sapiens with 42 samples.

Results

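Nonsense-mediated decay (NMD) transcripts are messages of coding genes whose reading frame stops early, upstream of a splice junction. The ends described here are the transcript ends that GENCODE 29 types as nonsense_mediated_decay and whose mean, over all libraries of a table, reached 10 reads. Of 3810 listed ends of this type, 394 met the rule in the table of LM2 and Par cells, 429 in the HNRNPC knockdown table and 350 in the T4 table. Together these were 452 ends of 444 genes, of which 329 met the rule in all 3 tables and 60 in 1 table. Entries of any type with such a mean numbered 8611 for LM2 and Par, among them 4742 protein_coding ends and 824 retained_intron ends. The members were thus chosen by annotation and by mean level, so the level itself is description. No contrast between groups entered the rule, though it was set with earlier results of these data known. An end high in 1 group could reach the mean through that group alone. The closest ends inside the threshold, within 1 read of it, had means of 10.1 to 10.9 (13 ends), 10 to 11 (23) and 10 to 10.9 (14) in the LM2 and Par, knockdown and T4 tables, and those just outside had 9 to 9.92 (13), 9 to 9.92 (24) and 9.06 to 9.94 (9).

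The libraries were QuantSeq REV, an assay that reads the 3′ end of polyadenylated RNA, from MDA-MB-231, a line of triple-negative breast cancer cells. The series set out to compare alternative polyadenylation between highly and poorly metastatic cells. There were 42 libraries in 14 groups of 3. In the first table, cytoplasmic and nuclear RNA came from LM2 cells, labelled highly metastatic to the lungs, and from Par cells, labelled poorly metastatic. The Par columns are named MDAtr in the deposited table and were taken as Par by elimination, being the columns set against LM2, so every Par value rests on that match. In the second, the same fractions came from poorly metastatic cells with a knockdown of HNRNPC (gHNRNPC) or a control (gCTRL), and how the knockdown was made is not given in the sources used here. In the third, total RNA came from LM2 cells exposed for 6 h to the compound T4 at 3 µM in DMSO, or to DMSO alone. They were harvested then, or after a change of medium at 24 h or 72 h. All cells grew in high-glucose DMEM with 10% FBS. The labels do not say that the libraries of a group came from separate cultures, so p-values measure the spread between these libraries, which may be technical.

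In NMD, a ribosome that stops before an exon junction complex recruits UPF1, which SMG1 phosphorylates, and factors such as SMG5 and SMG6 then bring cleavage and decapping of the message. Cells use it to remove faulty messages and to set the level of some normal ones, among them messages of splicing factors that carry poison exons and of stress-response genes. HNRNPC is a nuclear protein that binds runs of U and keeps Alu-derived exons out of messages. A 3′-end read shows where a molecule ended. It does not show whether the early stop codon lies further upstream in that molecule.

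That limit touches most of these ends, because the annotated NMD transcript often ended where a coding transcript of the same strand ended. An end was called shared when a protein_coding end lay at most 30 bases away, near at 31 to 100 bases, and its own beyond 100 bases; these classes were chosen after the data had been seen. The last 30 bases of 7 shared ends and their coding partners are shown because these ends recur in the results. They run 5′ to 3′ on the transcript strand of GRCh38 with GENCODE 29 positions, and capitals mark the polyadenylation hexamer AATAAA or ATTAAA. ACTB encodes cytoskeletal beta-actin, RPS14 a protein of the small ribosomal subunit, GANAB the catalytic subunit of glucosidase II, which trims glycans in the endoplasmic reticulum, and SMPD1 the lysosomal acid sphingomyelinase. FKBP10 encodes a prolyl isomerase that acts on collagen, ZBTB44 a zinc-finger protein, and PPP2R2D a regulatory subunit of the phosphatase PP2A. For RPS14, GANAB and ZBTB44 the coding end was the same base.
ACTB-204, chr7:5527156-5527185, minus strand: tgagaccagttgAATAAAagtgcacacctt
ACTB coding end, 5 bases downstream, chr7:5527151-5527180: ccagttgAATAAAagtgcacaccttaaaaa
RPS14-204 and its coding end, chr5:150444238-150444267, minus strand: ttttctgttAATAAAttgccttcatgtaaa
GANAB-211 and its coding end, chr11:62624826-62624855, minus strand: agaaacAATAAAgggataaaccataaataa
SMPD1-210, chr11:6394962-6394991, plus strand: gtctgttaaAATAAAgataagagacttgga
SMPD1 coding end, 4 bases downstream, chr11:6394966-6394995: gttaaAATAAAgataagagacttggactcc
FKBP10-206, chr17:41823182-41823211, plus strand: tttcctttgttccaAATAAAagattaaacc
FKBP10 coding end, 2 bases downstream, chr17:41823184-41823213: tcctttgttccaAATAAAagattaaaccaa
ZBTB44-203 and its coding end, chr11:130226677-130226706, minus strand: ttaaaatatcttatgctttatggAATAAAa
PPP2R2D-202, chr10:131959798-131959827, plus strand: accaaaaagttcAATAAAttttaaatgttt
PPP2R2D coding end, 7 bases downstream, chr10:131959805-131959834: agttcAATAAAttttaaatgtttaactgga

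The ends of the next set lay apart from every protein_coding end, and each has a result on its level or share below. PPP2R2D-207 ended 3279 bases before the nearest coding end of its gene. PODXL, which encodes the sialomucin podocalyxin, had its NMD end 3869 bases past the nearest coding end. DAZAP2, an adaptor protein, ended 146 bases before a coding end, and SMIM7, a small membrane protein, 194 bases past one. CSNK1E, which encodes casein kinase 1 epsilon, ended 427 bases past a coding end. The end of CAV1, which encodes the caveolae coat protein caveolin-1, lay 123 bases past one and showed neither hexamer, but a run of A in its place.
PPP2R2D-207, chr10:131956526-131956555, plus strand: actataaagtgtttttaaatccaaacagaa
PODXL-203, chr7:131500262-131500291, minus strand: ATTAAAgtgtttttgtgtaaactggttcaa
DAZAP2-203, chr12:51243756-51243785, plus strand: atttgAATAAAgtgatgaagttgcattaca
SMIM7-210, chr19:16646148-16646177, minus strand: cttgaaAATAAAcctcatttctaaaaagga
CSNK1E-210, chr22:38297602-38297631, minus strand: agaactcATTAAAcacctcctcttgcttca
CAV1-206, chr7:116559607-116559636, plus strand: tgaggaggaaaaaaaaaaaaaagaaaagaa

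The last set had values that were not whole numbers in most libraries, which in estimated counts means that reads were divided among entries. NMNAT1 encodes an NAD-synthesising enzyme of the nucleus, SLC25A26 the mitochondrial carrier of S-adenosylmethionine, and TIMM50 a subunit of the protein import channel of the mitochondrial inner membrane. The end of NMNAT1 is shown as an example, and it closed in a run of A.
NMNAT1-203, chr1:9983640-9983669, plus strand: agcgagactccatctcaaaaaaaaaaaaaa

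Shared ends were the largest class. They numbered 245 of 394 ends in the LM2 and Par table, 265 of 429 in the knockdown table and 219 of 350 in the T4 table. They held 78.2%, 80.4% and 68.6% of the reads at NMD ends. In 105, 114 and 92 of them the coding end was the same base. The coding transcript within 30 bases had an entry of its own in 6, 6 and 5 cases, so in the other 239, 259 and 214 the NMD entry was the one listed for that site. Reads at a shared end therefore cannot be told apart from those of the coding message. Near ends numbered 18, 22 and 12. Ends of their own numbered 131, 142 and 119, and held 19.3%, 17.0% and 29.6% of the reads at NMD ends. Of these, 75, 77 and 65 lay between coding ends of their gene, 27, 29 and 25 lay before the first one, and 23, 31 and 25 lay past the last. A second gene annotated on the same strand covered 67 of the 452 ends, and a gene on the other strand 82. Among the ends named below, the values of CSNK1E, DAB2, EIF6, FBXO16, MROH7-TTC4, NMNAT1, POLR2J3, SENP3-EIF4A1, SMIM7, TCTEX1D2 and TRAPPC1 are uncertain as to gene for the first reason. Those of MPPE1, MYLK, RPL35, RTL5, SLC25A26, TAF1D and ZC3HC1 are so for the second, as it is not given in the sources used here whether the counting used strand.

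The polyadenylation hexamer was more frequent in shared than in own ends, a description without a test. The letters AATAAA or ATTAAA were searched on the transcript strand in the last 40 bases of 449 ends in the reference. They stood in 76.3% of 274 shared ends, 43.5% of 23 near ends and 35.5% of 152 own ends. Over all 56493 listed ends the share was 25.7%, over the 4795 other listed ends with a mean of 10 or more it was 62.9%, and over the 3333 NMD ends below that mean in every table it was 14.1%. A match is a description of these letters and no match says only that they are not in this window. The annotated stop codon lay at least 50 bases before the last splice junction in 391 of 394, 426 of 429 and 348 of 350 ends, with a median distance of 604.5, 626 and 650 bases. SESTD1-202 was among the exceptions.

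At most shared ends the NMD entry held nearly all reads of its gene. The share of a gene's reads at a shared end had a median of 99.95%, 99.96% and 99.96% in the LM2 and Par, knockdown and T4 tables, and exceeded 90% at 199, 218 and 181 of these ends. It was under 50% at 18, 15 and 12. Own ends had medians of 79.7%, 81.4% and 90.7%, and 33, 34 and 24 of them held less than 50% of their gene's reads. Near ends had medians of 86.4%, 88.7% and 75.7%. In 45, 46 and 42 cases the gene had no other entry.

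**Figure D1:**
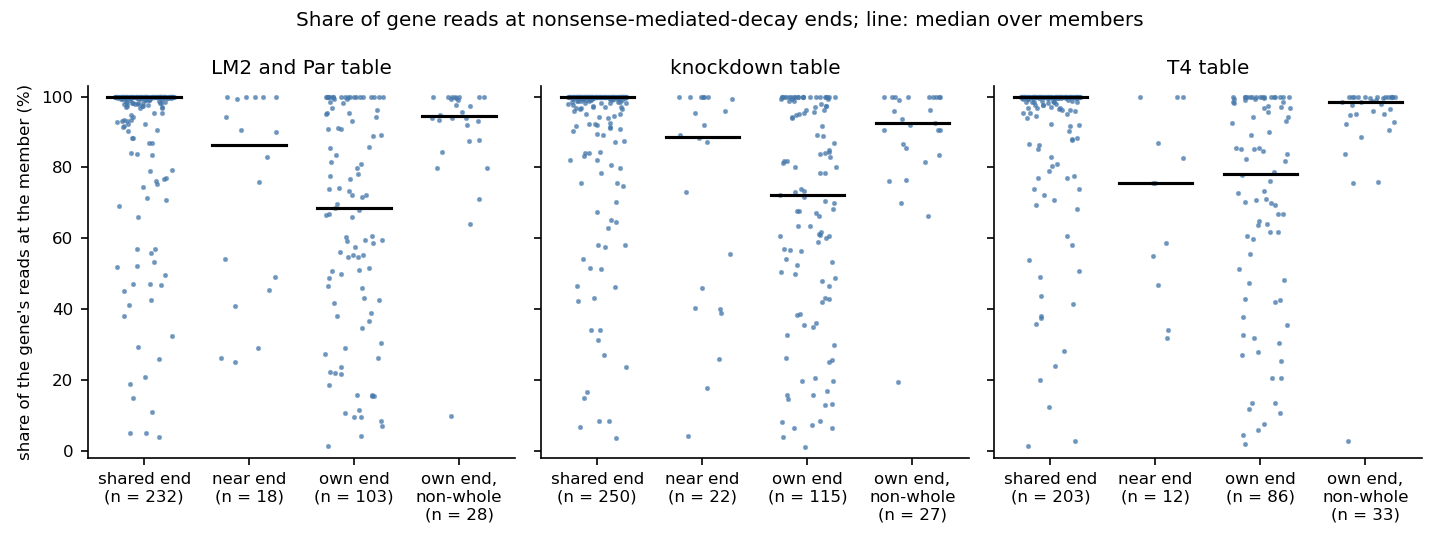
Share of a gene's reads (percent, vertical axis) at each NMD end, by class and table, with shared and own ends of whole values, near ends, and own ends of non-whole values. Each point is 1 end and the line is the median over ends; shared ends crowd at the top, with medians near 100%, while own ends spread over the whole range.

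A few ends carried most reads. The 10 highest held 55.3%, 51.6% and 57.3% of all reads at NMD ends in the 3 tables. ACTB-204 (chromosome 7, minus strand, 5527156 to 5530601) averaged 16613, 13100 and 15515 reads per library, and RPS14-204 (chromosome 5, minus strand, 150444238 to 150447735) 14363, 15772 and 9613. Both were shared ends. RPL35, of the large ribosomal subunit, followed with 4160, 4027 and 3387. GANAB-211 averaged 1879, 3272 and 1622 reads, EIF6, which keeps the large ribosomal subunit from joining, 1751, 1602 and 1048, and the co-chaperone DNAJB6 1146, 1182 and 1016. HINT1, a nucleotide hydrolase with an end of its own, averaged 1996, 1561 and 1142. The others among the 10 highest were SENP3-EIF4A1 (near, 1356 and 1234 reads in the first 2 tables), TPM4 (own, 1211 in the first), TMEM250 (1062 in the second), MPPE1 (1856, 1563 and 5186), TIMM50-215 (2426 in the third) and KDELC2 (1948 in the third). The last 3 had non-whole values.

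Ends with non-whole values in more than 50% of a table's libraries numbered 41, 42 and 49, of which 28, 27 and 33 were own ends and 13, 15 and 16 shared. They held 8.60%, 8.19% and 24.6% of the reads at NMD ends. Their last 200 bases had a stretch of 30 bases in common with listed ends of other genes in 34 of 40, 36 of 41 and 44 of 48 cases with sequence, against 30 of 351, 28 of 385 and 25 of 299 for whole values. The median number of such other genes was 41, 46 and 48.5, and the highest was 292. A run of 8 A stood in the last 30 bases of 33.3%, 38.5% and 34.4% of own ends with non-whole values, 8.42%, 6.54% and 8.86% of own ends with whole values, and 3.20%, 2.10% and 3.08% of shared ends with whole values. Values of TIMM50-215, NMNAT1, SLC25A26, MPPE1, KDELC2 and TAF1D are therefore uncertain as to gene.

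Library totals ran from 798052 to 2304700 reads, and NMD ends took 4 to 6.7% of each library. The nuclear libraries numbered 2 of LM2 and Par stood apart: non-whole NMD ends took 1.76% and 1.65% of their reads, against 0.22 to 0.63% in the other nuclear and 0.20 to 0.275% in the cytoplasmic libraries of that table. In the knockdown table the range was 0.542 to 0.673% in nuclei and 0.207 to 0.315% in cytoplasm, and with T4 or DMSO it was 0.51 to 2.39%, with the T4 library 3 of 6 h the highest. All 6 genes fixed as expressed in MDA-MB-231 were detected in every library, and ESR1 and CDH1 reached at most 0.849 and 2.28 CPM (the counts-per-million scale), while PGR, CD3E and CDH5 were at 0. EPCAM, GATA3 and CD68 reached 20.1, 19.3 and 123. MALAT1, a nuclear RNA, had 12.2 to 74.5 CPM in nuclei and 2.11 to 8.53 in cytoplasm, and RPLP0 2280 to 8316 in nuclei and 11702 to 16663 in cytoplasm. MT-ND4, a mitochondrial message, had 1227 to 9838 CPM in the nuclear and 55.9 to 423 in the cytoplasmic fraction. MT-CO1 and MT-CO3 were also higher in the nuclear fraction. COL1A1 reached 60.3 CPM in an LM2 nuclear library and PDGFRB 12.9 in a gCTRL nuclear library. ERBB2 reached 12.4 and CD14 11.6 in a gHNRNPC nuclear library. CD14 and CD68 were called higher in gHNRNPC than in gCTRL nuclei (log2 differences 2.37 and 1.29, edgeR). The rest of the immune, fibroblast and endothelial markers were near 0. NEAT1 reached 1.83 CPM, KCNQ1OT1 was at 0, and EEF1A1 reached 13.3. GAPDH had 3.37, 0.94 and 1.07 CPM in Par cytoplasm and 6.33, 4.55 and 3.20 in Par nuclei. Whether the entries hold all reads of such genes was not tested.

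**Figure D2:**
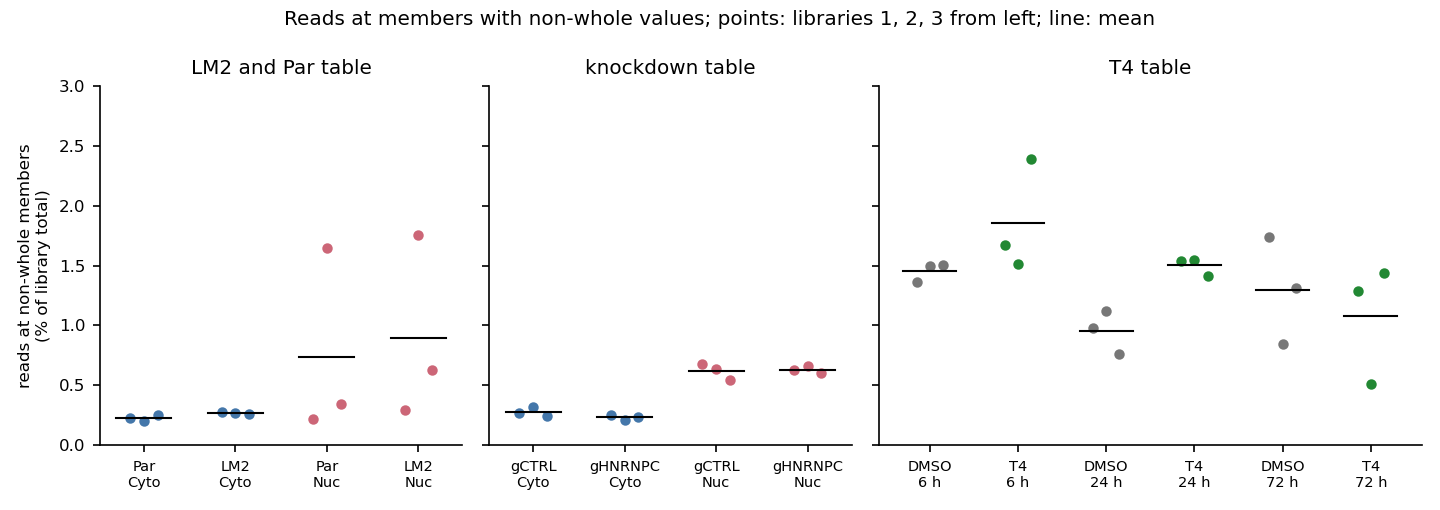
Reads at NMD ends with non-whole values, as percent of the library total (vertical axis), in every library of the 3 tables; points are libraries 1, 2 and 3 from left to right and the line is the group mean. The nuclear libraries numbered 2 of LM2 and Par, at 1.76% and 1.65%, and the T4 library 3 of 6 h, at 2.39%, stand above the rest of their groups.

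Nuclear RNA differed from cytoplasmic RNA at many NMD ends, in both directions. Levels are relative to the reads of their own library, so a nuclear level is a part of nuclear reads, not of a cell's RNA. The ends of SMPD1, PODXL, the gamma-secretase subunit NCSTN and GANAB were far higher in nuclei, and those of ACTB, RPS14, TPM4 (a tropomyosin), TRAPPC1 (a subunit of the TRAPP vesicle tether) and TAF13 (a subunit of the transcription factor TFIID) were lower. Levels were tested with edgeR's quasi-likelihood test over all entries that passed its filter on low counts, with Benjamini-Hochberg adjustment and a threshold of 0.05. In gCTRL cells 139 of 429 ends were higher in nuclei and 107 lower, where 60.1% of the 11221 entries tested were called; in gHNRNPC cells 116 were higher and 87 lower (51.9%). In Par cells 87 of 394 were higher and 87 lower, where 46.6% of 10123 entries were called, and in LM2 cells 107 were higher and 102 lower (54.9%). The balance in LM2 and gHNRNPC turned with the scaling. For LM2 it was 104 higher and 111 lower by DESeq2, and 98 and 114 with median-of-ratios scaling. For gHNRNPC it was 107 and 113 with library totals. The called share of NMD ends was below that of all entries in each population, and nothing is read from it about these ends. Their median log2 differences were 0.09, 0.02, -0.03 and 0.10, beside 0.05, 0.02, 0.08 and 0.26 over all entries. The fractions did not overlap at 228, 193, 168 and 202 of the called ends of gCTRL, gHNRNPC, Par and LM2. Here and below, such counts describe ends already called. Lack of overlap was also a condition for naming most called ends, so at a named end it adds no support. The same count over all called entries is not given, and nothing is read from it about NMD ends.

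Of 381 ends tested in both tables, 57 were called higher in nuclei in all 4 cell populations and 51 lower in all 4. TCTEX1D2, named after its values were seen, was called in opposite directions, and 86 ends were called in none. Among shared ends with whole values 31 of 224 were higher in all 4 and 32 lower. Among own ends with whole values 11 of 98 were higher and 17 lower. Among own ends with non-whole values 11 of 27 were higher and 0 lower. The same counts over all entries are not given here, so nothing is read from these about NMD ends as a set.

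SMPD1 was measured in gCTRL cytoplasm at 4.26, 2.65 and 4.65 CPM and in gCTRL nuclei at 276, 187 and 204. Every nuclear library was more than 10 times every cytoplasmic one, and the log2 difference was 5.81 ± 0.38 (adjusted p = 5.6e-12, edgeR). For log2 differences and log2 ratios, ± gives the standard error, and for levels and shares the SD of 3 libraries. It was 4.84 ± 0.33 in gHNRNPC, 4.03 ± 0.43 in Par and 4.48 ± 0.45 in LM2 cells. PODXL rose from 33.5, 10.6 and 23.3 CPM in gCTRL cytoplasm to 677, 927 and 1338 in nuclei. The difference was 5.44 ± 0.37 in gCTRL, 4.49 ± 0.35 in gHNRNPC, 4.31 ± 0.39 in Par and 5.54 ± 0.42 in LM2. The glycan-trimming gene GANAB had 281, 230 and 329 CPM in gCTRL cytoplasm against 3600, 4297 and 3036 in nuclei (3.70 ± 0.21, edgeR adjusted p = 7.5e-13). It was higher in nuclei by 2.93 ± 0.20 in gHNRNPC, 2.92 ± 0.27 in Par and 3.03 ± 0.27 in LM2. NCSTN (chromosome 1, plus strand, 160343316 to 160358952) differed by 5.23 ± 0.52 in gCTRL and 4.78 ± 0.67 in Par. In LM2 cytoplasm NCSTN had a single read, so its ratio is given with its counting interval: 236-fold higher in nuclei (95% interval 41.8 to 9401).

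Cytoplasmic ends included the most abundant ones. ACTB was measured at 12027, 18707 and 12362 CPM in gCTRL cytoplasm and 4375, 3739 and 2575 in nuclei (log2 difference -2.01 ± 0.24). RPS14 had 12709, 15755 and 12588 CPM in cytoplasm and 3252, 2887 and 2371 in nuclei (-2.27 ± 0.21), so that neither gene's fractions overlapped. TPM4-207 (chromosome 19, plus strand, 16088059 to 16102377), which ended 562 bases before the nearest coding end, had 1178, 1550 and 1087 CPM in gCTRL cytoplasm against 262, 258 and 201 in nuclei. Its difference was -2.40 ± 0.24 in gCTRL (edgeR adjusted p = 8.5e-09), -2.61 ± 0.27 in Par and -2.74 ± 0.27 in LM2. TAF13 had 63.4, 58.8 and 65.1 CPM in gCTRL cytoplasm and 9.75, 13.7 and 10.9 in nuclei (-2.44 ± 0.25). TRAPPC1, which another gene model overlaps on the same strand, differed by -2.45 ± 0.24 in gCTRL and -3.56 ± 0.37 in LM2.

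**Figure D3:**
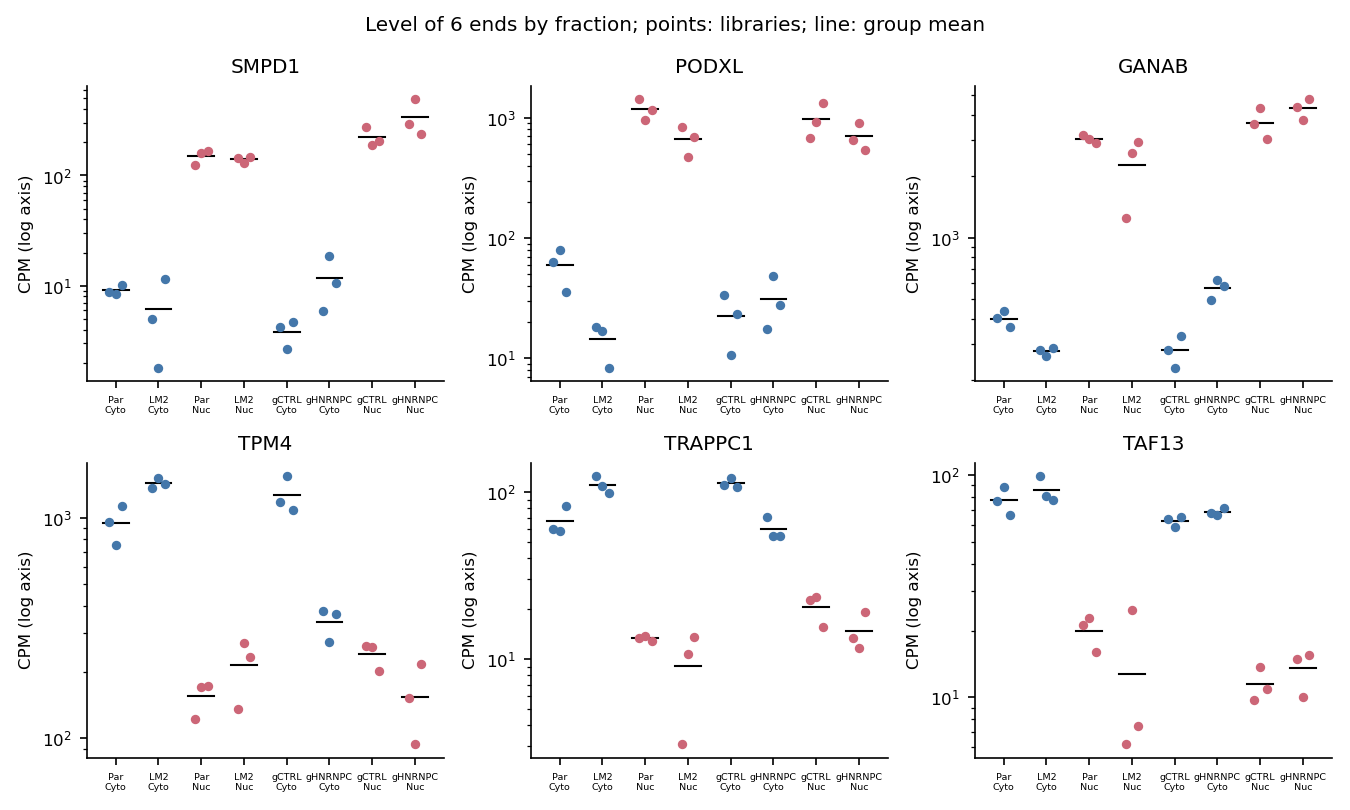
Level (CPM, log vertical axis) of 6 NMD ends in the cytoplasmic (blue) and nuclear (red) libraries of Par, LM2, gCTRL and gHNRNPC; points are libraries and the line is the group mean. SMPD1, PODXL and GANAB are higher in nuclei in all 4 populations, and TPM4, TRAPPC1 and TAF13 are lower.

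Own ends with non-whole values had median log2 differences between nucleus and cytoplasm of 1.81 in gCTRL (21 higher and 3 lower of 27), 2.08 in gHNRNPC (22 and 2), 2.68 in Par (13 and 3 of 28) and 2.54 in LM2 (10 and 2). Reads at such ends were divided among entries, so here and below these ends are not separate observations, and the classes were not tested against each other. Own ends with whole values had -0.21 (29 and 30 of 115), -0.15 (22 and 27), -0.27 (14 and 30 of 103) and -0.43 (19 and 36). In Par and LM2 these values moved with the nuclear libraries numbered 2. NMNAT1 had 54, 1415 and 144 CPM in Par nuclei and 99.9, 1464 and 306 in LM2 nuclei, and TIMM50-215 had 161, 3173 and 336 and 320, 3821 and 816. Without both libraries the medians of own ends with non-whole values were 0.57 in Par (8 and 5 of 27) and 1.03 in LM2 (16 and 4). In gCTRL, where no library stood apart, NMNAT1 had 57.7, 73.3 and 36.6 CPM in cytoplasm and 339, 305 and 252 in nuclei.

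The share of a gene's reads at the NMD end was tested as the ratio of the end to all other entries of its gene, for entries with a mean of 10 reads or more in both. In gCTRL 19 of 118 NMD ends took a higher share in nuclei and 20 a lower one, where 28.4% of the 2779 entries tested were called; in gHNRNPC the counts were 12 and 10 (13.1%). In Par they were 5 and 5 of 113, where 9.81% of 2517 entries were called, and in LM2 13 and 25 (35.6%). All 10 ends called in Par were called the same way in LM2: ALDH7A1, CD44, SLC25A26, UBE2J2 and ZFP90 higher, DAZAP2, ERC1, KLHL5, POLR2J3 and RUNX1 lower. The count in Par was 26 without both nuclear libraries numbered 2, 17 by limma with a pseudocount of 5 and 5 with the 2 groups fitted alone. It was 2, 6 and 1 without its cytoplasmic libraries 1, 2 and 3, and 2 without its nuclear library 3. In gCTRL it was 25 without cytoplasmic library 2 and 23 without nuclear library 3, and in gHNRNPC it was 12 without cytoplasmic library 3.

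DAZAP2 showed the shift with its full range. The NMD end held 98, 98.3 and 96.6% of the gene's reads in gCTRL cytoplasm and 62.8, 65.5 and 60.5% in nuclei. The log2 ratio to the rest of the gene fell by 4.61 ± 0.38 (edgeR adjusted p = 4.8e-08). In Par cells the share went from 97.7 ± 0.466% in cytoplasm to 73.1 ± 6.65% in nuclei (n = 3; log2 ratio -3.95 ± 0.36), and in LM2 cells from 96.5 ± 0.58% to 69.6 ± 5.62% (-3.59 ± 0.37). In gHNRNPC cells it was 94.7 ± 2.18% in cytoplasm and 52.2 ± 10% in nuclei (-4.04 ± 0.38).

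PPP2R2D had 2 NMD ends that split its reads. The shared end PPP2R2D-202, printed above with its hexamer, held 9.8, 8.33 and 10.5% in gCTRL cytoplasm and 45.5, 53.1 and 39.2% in nuclei. The own end PPP2R2D-207, without hexamer, held 90.2, 86.7 and 89.5% in cytoplasm and 54.5, 46.9 and 60.8% in nuclei. The log2 ratio rose by 2.95 ± 0.47 at the first (edgeR adjusted p = 0.00013) and fell by 2.68 ± 0.47 at the second (0.00033). As both ends belong to 1 gene, these are 2 views of 1 shift. In gHNRNPC cells the changes were 4.02 ± 0.55 and -3.80 ± 0.55.

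CD44, the hyaluronan receptor, had a share of 31.7, 20 and 22.2% in Par cytoplasm and 56.2, 43.1 and 51.8% in Par nuclei. The share of KLHL5 was 47.6, 45.5 and 63.7% in Par cytoplasm and 18.1, 26.1 and 26.8% in nuclei. SLC25A26, a non-whole end, held 74.5, 83.8 and 78.3% in gCTRL cytoplasm and 97.3, 99.2 and 98.4% in nuclei (log2 ratio 3.83 ± 0.45).

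Called differences between LM2 and Par cells included those of FKBP10 and PHGDH, which encodes the first enzyme of serine synthesis, both higher in LM2, and PODXL, TAF1D (a subunit of the RNA polymerase I factor SL1) and CAV1, lower in LM2. FKBP10 and PHGDH reached the mean of 10 reads mainly through LM2, the group where they are high. Their differences are therefore description and are no evidence about NMD ends as a set. In these bulk libraries fewer cells with an RNA and less of it per cell cannot be told apart. In cytoplasm 15 of 394 ends were higher in LM2 and 24 lower, where 10.1% of all entries tested were called; the NMD ends' share was 9.90%. Their median log2 difference was 0.05, beside -0.02 over all entries. In nuclei 5 were higher and 2 lower, where 1.87% of entries were called, with medians of 0.01 for both. The groups did not overlap at any of the 39 and 7 called ends. By DESeq2 the split in cytoplasm was 23 and 16, and with median-of-ratios scaling 19 and 12, so the balance of higher and lower ends depended on the scaling; in nuclei it was 4 and 0 with library totals and 6 and 1 with median-of-ratios scaling.

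These counts moved with the fit and with single libraries. In cytoplasm 120 ends were called with the 2 groups fitted alone and 61 without both nuclear libraries numbered 2. By contrast 11, 9 and 8 ends were called without LM2 library 1, 2 and 3, and 7 and 7 without Par library 1 and 2, and 7 were called with library totals. In nuclei 1 was called with the 2 groups fitted alone, 4 without LM2 library 3, 3 without Par library 1 and 4 without Par library 3. Libraries with the same number deviated together in nuclei, and with the number as a block 5 nuclear ends were called, 3 higher and 2 lower: RTL5 (adjusted p = 0.0675, against 0.0326 without the block) and PDCD6IP (0.0901, against 0.0347) lost their call.

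FKBP10-206 (chromosome 17, plus strand, 41812989 to 41823211) was measured at 0, 0.47 and 0 CPM in Par cytoplasm and 29.4, 24.6 and 34.9 in LM2 cytoplasm. In nuclei it had 0, 1.14 and 0.801 CPM in Par and 46, 106 and 126 in LM2. Par libraries held 1 read in cytoplasm and 2 in nuclei, against 151 and 321 in LM2. The ratios with their 95% counting intervals were 190 (33.5 to 7541) in cytoplasm and 173 (47.4 to 1431) in nuclei (edgeR adjusted p = 0.0005 and 0.00029). PHGDH-216 (chromosome 1, plus strand, 119711936 to 119744213; coding end 1 base away) had 2.53, 2.35 and 5.35 CPM in Par cytoplasm and 32.5, 32.4 and 27.7 in LM2 cytoplasm (log2 difference 3.17 ± 0.47, edgeR adjusted p = 0.0044). In nuclei it had 2.81, 0 and 4 against 18.4, 18.9 and 27.7 (3.11 ± 0.54, 0.013), a call lost when the 2 groups were fitted alone. Both were shared ends, so the coding message of each gene is counted in them. Of the fibroblast markers, only COL1A1 moved with these ends. Of the 4 on the list, COL1A1, a collagen chain, had 0, 1.41 and 0 CPM in Par cytoplasm and 8.74, 8.40 and 7.76 in LM2, and 0, 0 and 0.801 in Par nuclei against 26.6, 60.3 and 58.1 in LM2 (edgeR adjusted p = 0.012 and 0.0015). The summed level of the list was 0 to 1.41 CPM in Par and 7.76 to 8.74 in LM2 cytoplasm, and 0 to 2.40 and 26.6 to 62.7 in nuclei. DCN was at 0 in every library, COL1A2 reached 0.801 and PDGFRB 2.37 CPM in this table, and the part of these in the result was not tested.

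Lower in LM2 was PODXL, with 63.2, 79.4 and 35.8 CPM in Par cytoplasm and 18.1, 16.8 and 8.31 in LM2 (log2 difference -2.04 ± 0.37, edgeR adjusted p = 0.0097). Its nuclear levels were 1420, 964 and 1161 in Par and 844, 474 and 696 in LM2, and did not pass the test. TAF1D-202, an own end with non-whole values, had 38.7, 32.4 and 32.6 CPM in Par cytoplasm against 12.3, 16.2 and 12.2 in LM2 (-1.34 ± 0.20, 0.0043). The calls of FKBP10, PODXL and TAF1D in cytoplasm held under all 13 alternatives run, with adjusted p of at most 0.006, 0.0497 and 0.0329. CAV1 had 692, 847 and 785 CPM in Par cytoplasm and 340, 359 and 311 in LM2, and in nuclei 740, 593 and 797 against 305, 239 and 314 (differences -1.20 ± 0.17 and -1.31 ± 0.17, edgeR adjusted p = 0.0039 and 0.0028). The nuclear call of CAV1 was lost with the 2 groups fitted alone and with library totals. ACTB had 9988, 9740 and 13024 CPM in Par cytoplasm against 18005, 19207 and 19371 in LM2 (0.79 ± 0.22, edgeR adjusted p = 0.043), a call lost in several alternatives.

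No NMD end passed the edgeR test for a change in its share of gene reads between LM2 and Par. In cytoplasm 0 of 113 were called, where 0.0% of the entries tested were called and 18 NMD ends had an unadjusted p under 0.05. In nuclei 0 were called (0.0% of entries; 5 at that unadjusted p). Without Par cytoplasmic library 3 the cytoplasmic count was 2, and without Par nuclear library 2 the nuclear count was 1. With the 2 groups fitted alone the cytoplasmic count was 18, and without both nuclear libraries numbered 2 it was 8, while with limma both counts were 0 at pseudocounts of 1 and 5. The difference between the nuclear and cytoplasmic effects of the cell line, tested by itself, gave 0 calls for the level (0.0% of entries; 48 NMD ends at an unadjusted p under 0.05; 0 by DESeq2).

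Of all genes called between the cell lines in cytoplasm, 341 were higher in LM2 and 589 lower. Called genes of the decay pathway were also mostly lower, and nothing is read from that direction about the pathway. Summed over all entries of a gene, 0 of 12 NMD core factors were higher in LM2 cytoplasm and 2 lower, SMG5 (-1.08) and SMG8 (-1.56), where 10.9% of genes were called. Of 10 known NMD target genes ATF4 was higher (1.06) and the host gene SNHG15 (-1.55) and UPP1 (-0.95) were lower. Of 5 exon junction complex genes ACIN1 was lower, with 5.05, 6.58 and 3.75 CPM in Par and 0, 0.60 and 0 in LM2 cytoplasm (edgeR adjusted p = 0.0073). Of 13 decapping and decay genes DDX6 (-0.54) and EXOSC10 (-0.58) were lower, and of 25 genes on the list of splicing factors U2AF1 (-1.58). In nuclei UPP1 was lower (-1.10; 2.21% of genes called), and no other gene of these lists was called.

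In the knockdown table HNRNPC itself was first checked. Its entries summed to 537, 480 and 487 CPM in gCTRL cytoplasm and 85.3, 112 and 98.4 in gHNRNPC cytoplasm, and to 422, 510 and 616 against 84.8, 114 and 89.4 in nuclei. The log2 differences were -2.36 ± 0.19 and -2.44 ± 0.19 (edgeR adjusted p = 1.6e-08 and 1.2e-08), in the direction of the labels.

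After HNRNPC knockdown the NMD ends of IP6K2 (an inositol hexakisphosphate kinase), TRIM8 (an E3 ubiquitin ligase), H2AFJ (a histone H2A) and NFKBIB (an inhibitor of NF-kappaB) rose in both fractions. Those of SESTD1, NADSYN1 (an NAD synthetase), ADGRG1 (an adhesion receptor) and CAV1 fell in both. In cytoplasm 45 of 429 ends rose and 45 fell, where 22.3% of the entries tested were called, and in nuclei 27 rose and 24 fell (12.5%). Their median log2 differences were 0.03 and 0.07, beside 0.01 and 0.05 over all entries. With library totals the cytoplasmic split was 58 and 36 and the nuclear one 15 and 34, and by DESeq2 the nuclear one was 17 and 23, so the balance between higher and lower ends turned with the scaling. The groups did not overlap at 87 of the 90 and 50 of the 51 called ends.

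The ends that rose in both fractions numbered 16, which is 35.6% of those in cytoplasm and 59.3% of those in nuclei. Those that fell in both numbered 14, or 31.1% and 58.3%. No end was called in opposite directions. How many of all entries rose or fell in both fractions is not given here, so nothing is read from these counts about NMD ends. The difference between the nuclear and cytoplasmic effects, tested by itself, gave 0 calls with edgeR (0.0356% of entries; 46 NMD ends at an unadjusted p under 0.05) and 2 by DESeq2. Without gHNRNPC cytoplasmic library 2 the cytoplasmic count was 56. The nuclear count was 32 and 27 without gCTRL library 1 and 2, and 30 and 32 without gHNRNPC library 1 and 3.

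IP6K2-212 (chromosome 3, minus strand, 48693456 to 48740353; coding end 3 bases away) had 4.26, 2.12 and 3.72 CPM in gCTRL cytoplasm and 25.6, 44.6 and 38 in gHNRNPC cytoplasm. In nuclei it had 13.4, 13 and 14.8 against 47.4, 76.8 and 45.8. The differences were 3.39 ± 0.35 and 2.04 ± 0.30 (edgeR adjusted p = 4.2e-07 and 5.3e-05). TRIM8-206 (chromosome 10, plus strand, 102644837 to 102657908) ended 354 bases from a coding end. It rose from 6.39, 4.24 and 5.58 CPM to 42.7, 43.1 and 33 in cytoplasm (2.85 ± 0.30, 6.1e-07) and from 2.44, 2.48 and 1.93 to 24.1, 18.6 and 18.5 in nuclei (3.11 ± 0.39, 7.7e-06). NFKBIB went from 11.2, 7.41 and 6.05 to 26.1, 33.5 and 24.9 CPM in cytoplasm (1.78 ± 0.32, 0.00038) and from 7.93, 5.59 and 7.72 to 21.6, 28.7 and 14.8 in nuclei (1.60 ± 0.36, 0.004). GANAB rose in cytoplasm, from 281, 230 and 329 to 495, 617 and 580 CPM (1.01 ± 0.19, 0.00056).

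NADSYN1-204 (chromosome 11, plus strand, 71455125 to 71501541; coding end 2 bases away) fell from 51.1, 58.2 and 47.9 CPM to 5.33, 9.13 and 14.4 in cytoplasm. In nuclei it fell from 59.1, 55.9 and 35.4 to 9.14, 13.2 and 16.3. The differences were -2.41 ± 0.31 and -1.95 ± 0.32 (edgeR adjusted p = 5.1e-06 and 0.00021). SESTD1-202 (chromosome 2, minus strand, 179121794 to 179146459), whose end lay 20102 bases from the nearest coding end, fell from 19.7, 16.4 and 11.2 to 3.2, 1.01 and 0.845 CPM in cytoplasm (-3.22 ± 0.52, 0.00011). ADGRG1 fell from 17.6, 12.2 and 14.9 to 1.6, 5.07 and 2.11 in cytoplasm (-2.33 ± 0.38) and from 165, 162 and 182 to 64.8, 76.8 and 44.3 in nuclei (-1.45 ± 0.24). CAV1 went from 278, 276 and 271 to 63.2, 78.4 and 74.6 CPM in nuclei (-1.93 ± 0.19, edgeR adjusted p = 2.4e-07). TPM4 fell in cytoplasm, from 1178, 1550 and 1087 to 377, 274 and 365 CPM (-1.91 ± 0.24, 3.5e-06), and ACTB from 12027, 18707 and 12362 to 8403, 5535 and 7938 (-0.98 ± 0.24, 0.0044). FBXO16, an F-box protein named after its values were seen and overlapped by ZNF395 on the same strand, had 13.8, 6.98 and 0 CPM in gCTRL nuclei and 0 in all gHNRNPC nuclei, at least 9.07-fold lower against a floor of 3 reads over the group (34 reads against 0).

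By class, shared ends with whole values gave 30 higher and 28 lower of 250 in cytoplasm and 14 and 17 in nuclei. Own ends with whole values gave 12 and 10 of 115 and 8 and 5. Own ends with non-whole values gave 1 and 6 of 27 in cytoplasm and 1 and 0 in nuclei. SLC25A26 had a share of gene reads of 71.6 ± 5.29% in gHNRNPC cytoplasm against 78.9 ± 4.68% in gCTRL, a difference that did not pass the test.

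The share of gene reads at the NMD end rose at 4 and fell at 6 of 118 ends in cytoplasm, where 11.2% of entries were called, and rose at 2 and fell at 2 in nuclei (2.84%). SMIM7 rose and MBD3 and ZBTB44 fell in both fractions. The cytoplasmic count was 4 without gCTRL library 2, and 16, 5 and 4 without gHNRNPC library 1, 2 and 3. The nuclear count was 2 and 0 without gCTRL library 1 and 2, and 1, 0 and 0 without gHNRNPC library 1, 2 and 3.

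MBD3, a subunit of the NuRD complex, had its end MBD3-209 (chromosome 19, minus strand, 1576640 to 1585307) at the base of a coding end. That end held 92.7, 91.9 and 92.2% of the gene's reads in gCTRL cytoplasm and 76.4, 77.4 and 75% in gHNRNPC cytoplasm. The log2 ratio fell by 1.89 ± 0.31 (edgeR adjusted p = 0.00053). In nuclei the shares were 97.6, 96.7 and 95% against 92.7, 84.6 and 85.5% (-1.91 ± 0.39, 0.0091). ZBTB44 held 87.3, 90.6 and 84.3% in gCTRL cytoplasm and 69.9, 76.8 and 70.4% in gHNRNPC (-1.41 ± 0.31, 0.0054). SMIM7-210, an own end that another gene model overlaps on the same strand, rose from 21.3, 17.5 and 22% to 36.4, 55.7 and 49.3% in cytoplasm (1.81 ± 0.33, 0.0014) and from 29.3, 21.6 and 33.7% to 48.8, 54.5 and 52.2% in nuclei (1.47 ± 0.34, 0.019). Its cytoplasmic call was lost when only transcript entries were used. USP7, a deubiquitinase whose NMD end lay 678 bases from a coding end, held 41.3, 26.9 and 42.3% in gCTRL cytoplasm and 62.4, 64.3 and 59.3% in gHNRNPC (1.49 ± 0.33, 0.006). TPM4 went from 96.4 ± 0.899% to 92.4 ± 2.31% in cytoplasm (n = 3; -1.15, 0.023) and CAV1 from 66.2 ± 9.16% to 49.4 ± 7.22% (-1.03, 0.043); both fell in share as well as in level.

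**Figure D4:**
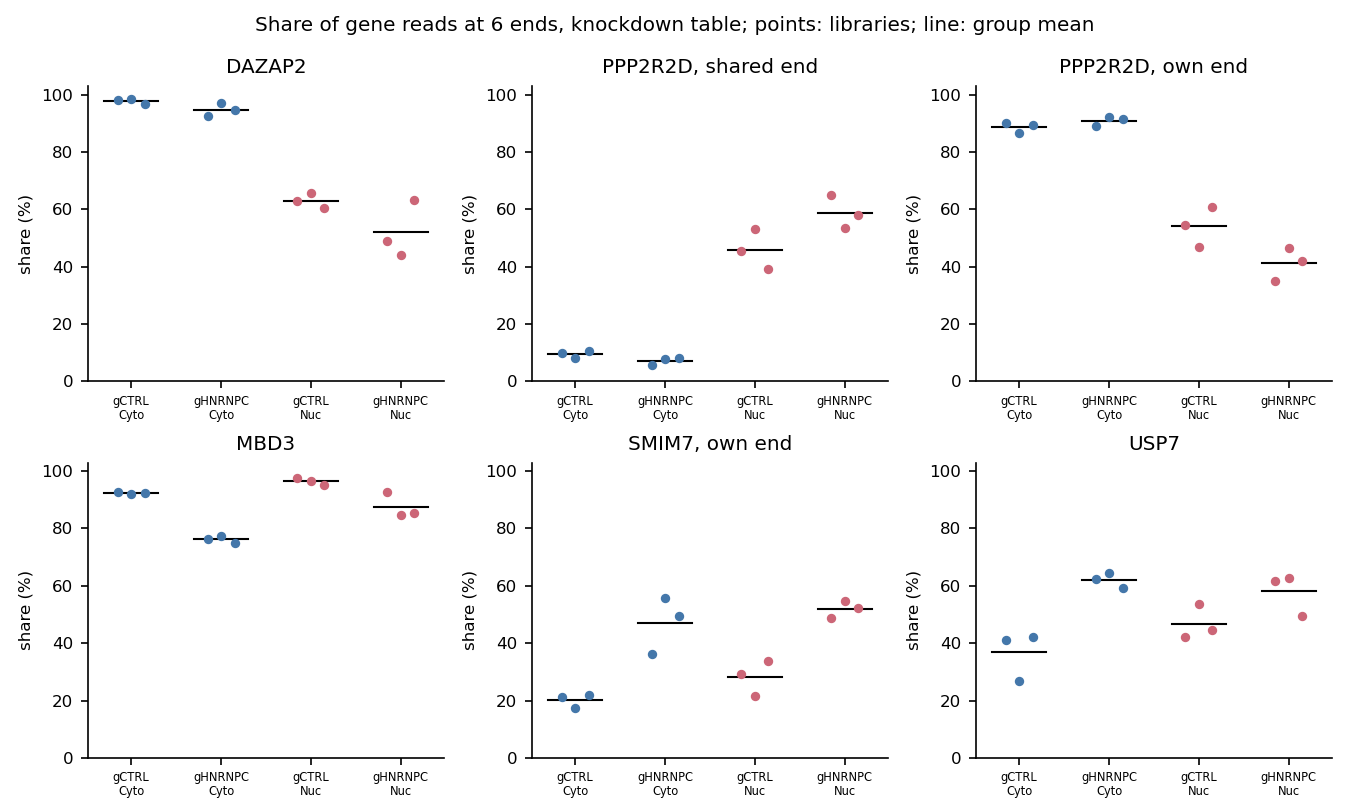
Share of gene reads (percent, vertical axis) at 6 NMD ends in the cytoplasmic (blue) and nuclear (red) libraries of gCTRL and gHNRNPC; points are libraries and the line is the group mean. DAZAP2 and both PPP2R2D ends differ by fraction, while MBD3 is lower and the SMIM7 end higher in gHNRNPC in both fractions.

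At the level of whole genes, splicing and decay genes were read from lists chosen with earlier results of these data known. Of 26 genes tested on the list of splicing factors, 3 rose in cytoplasm (U2AF1 1.51, HNRNPDL 1.08 and CLK1 0.88) and SNRPB (-0.76) and TIAL1 (-0.60) fell, where 23.3% of genes were called; in nuclei HNRNPDL rose (0.91) and HNRNPH1 fell (-0.87; 14.1%). Among the NMD core factors SMG8 rose in cytoplasm (1.55 ± 0.32) and SMG1 (-0.59) and NBAS (-0.89) fell, and 0 of 12 were called in nuclei. Of 6 exon junction complex genes EIF4A3 (1.09), MAGOHB (0.77) and SAP18 (1.06) rose in cytoplasm and 0 in nuclei. Of 12 decapping and decay genes EDC4 (1.01) and DCP1A (0.83) rose and CNOT1 fell (-1.10) in cytoplasm, and DIS3 rose in nuclei (1.33). Known NMD target genes rose at 11 of 13 in each fraction, with medians of 1.42 and 1.30. This list overlaps with stress-response genes, and the part of each was not tested. The stress-induced factor DDIT3 went from 117 ± 13.4 to 635 ± 43.2 CPM in cytoplasm (2.43 ± 0.21, edgeR adjusted p = 2.9e-08). Between gCTRL nuclei and cytoplasm, where 61.5% of genes were called, 6 of 12 NMD core factors were higher in nuclei, among them UPF3A (1.91) and SMG8 (2.69), and PNRC2 was lower (-1.03). The difference between the fractions' knockdown effects was called for 0 genes of these lists (0.0214% of genes).

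Among the NMD ends, 4 belonged to genes on these lists. CLK1, a kinase of splicing factors, had 8.52, 11.1 and 12.6 CPM in gCTRL cytoplasm and 17.6, 24.9 and 16.5 in gHNRNPC (0.86 ± 0.30, edgeR adjusted p = 0.045), a call lost in several alternatives. It was higher in nuclei than in cytoplasm, by 2.05 ± 0.29 in gCTRL and 1.27 ± 0.30 in Par. The end of SNRNP70, the 70-kilodalton protein of the U1 particle, had 149 ± 30 CPM in gCTRL and 187 ± 29 in gHNRNPC cytoplasm and was not called, and it was higher in nuclei by 0.80 ± 0.22 in gCTRL. SRSF7 passed the test in a single comparison, lower in gHNRNPC nuclei than cytoplasm (-0.65 ± 0.25, edgeR adjusted p = 0.031). The end of NBAS, with 11.5 ± 4.6 CPM in gCTRL and 6.1 ± 1.89 in gHNRNPC cytoplasm, was not called in any comparison.

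Some NMD ends differed between T4 and DMSO at 6 h and 24 h, and none passed the test at 72 h. CSNK1E was higher at 6 h and 24 h, and DAB2, a clathrin adaptor, at 24 h. MROH7-TTC4 (a readthrough of 2 neighbouring genes), ZC3HC1 (a nuclear zinc-finger protein) and ZNF142 were lower at 6 h, and SNX17, a sorting nexin, at 24 h. At 6 h 13 of 350 ends were higher and 31 lower, where 14.1% of the 9381 entries tested were called, and at 24 h 5 were higher and 13 lower (4.85%). At 72 h 0 were called by edgeR (0.149% of entries; 28 NMD ends at an unadjusted p under 0.05), and 0 by DESeq2. The median log2 differences at 6 h and 24 h were -0.10 and -0.04, beside -0.13 and 0.02 over all entries. The groups did not overlap at 43 of the 44 ends of 6 h and all 18 of 24 h.

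Scaling mattered at 6 h. The TMM scaling factors of the T4 libraries were 0.838, 0.868 and 0.530, against 0.992 to 1.01 with DMSO. With library totals alone the median of all entries went from -0.13 to -0.51, and the split from 13 higher and 31 lower to 3 and 65. By DESeq2 the split was 23 and 31. Without DMSO library 1 and 3 the 6 h count was 29 and 28, and without T4 library 3 it was 12 higher and 32 lower. The 24 h count was 9 and 7 without DMSO library 1 and 2, and 7, 8 and 10 without T4 library 1, 2 and 3. With the 2 groups fitted alone the counts were 12 at 6 h and 86 at 24 h, so the order of these times turned with the fit.

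CSNK1E-210 had 5.35, 3.84 and 3.76 CPM with DMSO and 27.2, 25.8 and 26.5 with T4 at 6 h, and 3.08, 4.76 and 6.69 against 19.5, 16.7 and 21.1 at 24 h. At 72 h it had 4.11 ± 1.22 and 6.14 ± 0.907. The log2 differences at the first 2 times were 2.60 ± 0.33 and 1.96 ± 0.31 (edgeR adjusted p = 4.2e-05 and 0.0019). A readthrough gene model lies over this end, and no other entry of CSNK1E had reads in the T4 table. DAB2-207 (chromosome 5, minus strand, 39389108 to 39424913), whose end lay 4150 bases from a coding end and under another gene model, had 16, 17.9 and 7.91 CPM with DMSO and 59.4, 67.5 and 60.9 with T4 at 24 h (2.16 ± 0.25, 0.00012). At 6 h it had 22.2, 16.1 and 22.6 against 29, 28.5 and 20.4, which overlap. ZNF330, a zinc-finger protein, rose at 6 h from 3.82, 2.31 and 6.26 to 17.5, 22.3 and 36.7 CPM (2.49 ± 0.48, 0.0018).

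MROH7-TTC4-202 (chromosome 1, plus strand, 54641787 to 54742308), which ends 349 bases from a coding end of TTC4 and cannot be told apart from that gene's reads, fell from 26, 34.6 and 23.2 to 5.26, 2.67 and 2.04 CPM at 6 h (-2.92 ± 0.41, edgeR adjusted p = 0.00013). ZC3HC1-212 (chromosome 7, minus strand, 130018315 to 130051374; coding end 11 bases away) fell from 36.7, 28.4 and 35.7 to 10.5, 2.67 and 4.08 (-2.45 ± 0.39, 0.00035). ZNF142 had 14.5, 13.8 and 13.2 CPM with DMSO and 0, 0.89 and 0 with T4 at 6 h, 58 reads against 1, a 38.0-fold lower level (95% counting interval 6.55 to 1525). COL27A1, a fibrillar collagen chain, fell from 20.6, 16.9 and 17.5 to 5.26, 0.89 and 0 CPM (-2.83 ± 0.49, 0.00074). All 4 were lower in every T4 library of 6 h. At 24 h ZNF142 had 17.9, 16.7 and 12.8 CPM with DMSO and 17, 22.5 and 12.5 with T4, and COL27A1 13.6, 18.5 and 18.9 against 21.2, 21.8 and 19.5, and neither was called; whether the effects at 6 h and 24 h differ was not tested.

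SNX17-204 (chromosome 2, plus strand, 27370665 to 27377128), at the base of a coding end, had 69, 46.4 and 77.9 CPM with DMSO and 19.5, 18.1 and 25 with T4 at 24 h (-1.62 ± 0.26, edgeR adjusted p = 0.0019). At 6 h its means were 60 ± 5.85 and 70.9 ± 23.8 CPM. ATG16L2, an autophagy gene, had 22.2, 17.7 and 20 CPM against 8.77, 5.34 and 6.12 at 6 h and 33.3, 29.8 and 28.6 against 14.4, 16 and 10.9 at 24 h (-1.53 ± 0.30 and -1.14, edgeR adjusted p at 6 h 0.002). At 72 h it had 37.8, 55.3 and 43 against 43.9, 40.8 and 40.5, which overlap.

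**Figure D5:**
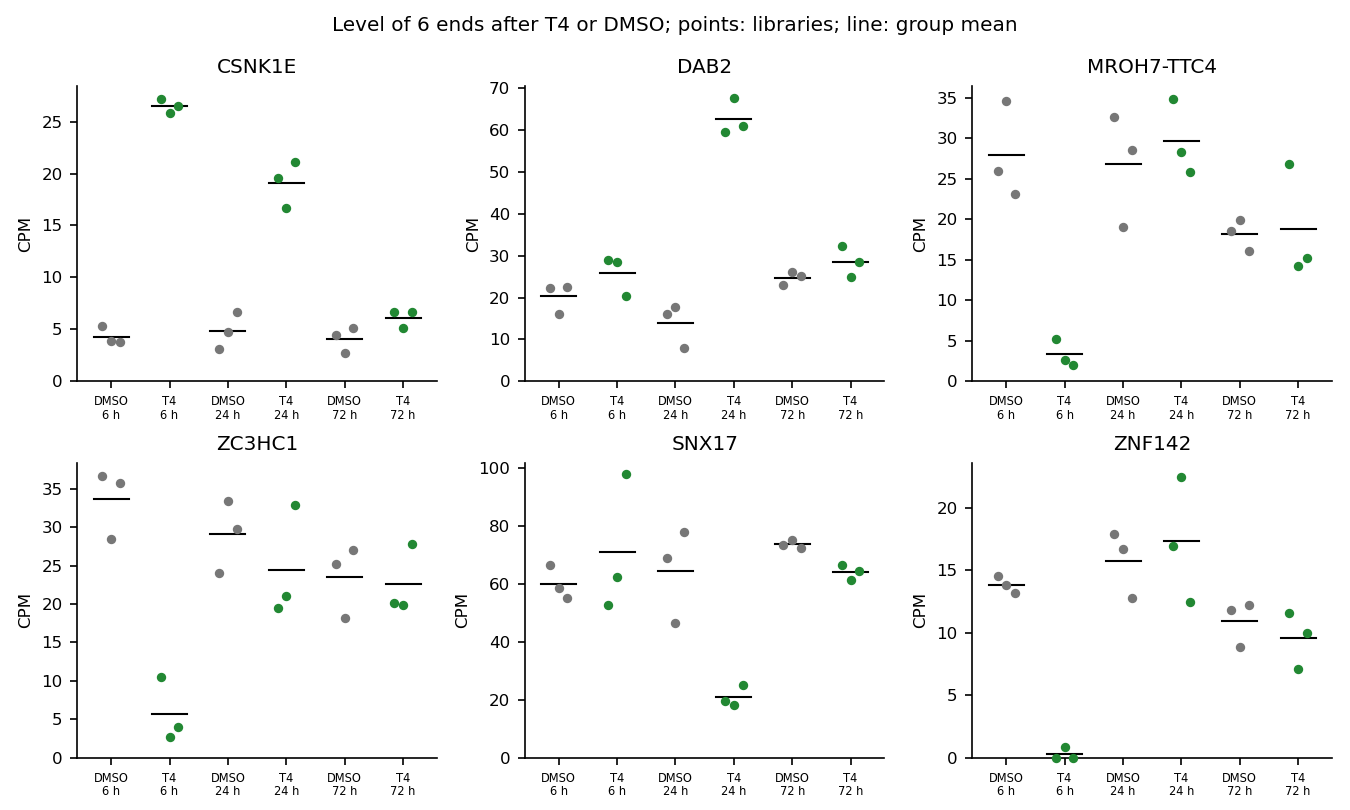
Level (CPM, vertical axis from 0) of 6 NMD ends in LM2 cells given DMSO (grey) or T4 (green) and harvested at 6, 24 or 72 h; points are libraries and the line is the group mean. CSNK1E is higher with T4 at 6 h and 24 h and DAB2 at 24 h, MROH7-TTC4, ZC3HC1 and ZNF142 are lower at 6 h and SNX17 at 24 h.

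Among the classes, shared ends with whole values gave 7 higher and 16 lower of 203 at 6 h and 0 and 11 at 24 h. Own ends with whole values gave 5 and 12 of 86 and 4 and 1. Own ends with non-whole values had medians of 0.88, 0.90 and -0.37 at 6, 24 and 72 h, with 0 higher and 1 lower of 33 called at 6 h and 0 at 24 h. MPPE1, the highest of them, had 3686, 4230 and 4132 CPM with DMSO and 5966, 4970 and 13069 with T4 at 6 h. NMNAT1 had 649, 797 and 804 against 1070, 937 and 2563. The third T4 library was the highest at both, and without it the 6 h median was 0.43.

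T4 moved few shares. At 6 h 0 of 69 ends rose and 1 fell, where 5.93% of the 1905 entries tested were called. At 24 h 1 rose and 0 fell (2.1%), and at 72 h 0 were called (0.0%). TOP3A-207, of DNA topoisomerase 3 alpha, held 7.44, 11.4 and 7.56% of its gene's reads with DMSO and 2.59, 3.06 and 2.18% with T4 at 6 h (log2 ratio -1.81 ± 0.48, edgeR adjusted p = 0.026). MYLK-207, of myosin light chain kinase, held 53.2, 52.1 and 52.1% with DMSO and 75.5, 76.7 and 70.9% with T4 at 24 h (1.38 ± 0.33, 0.039). Both calls were lost under several alternatives. The 6 h count was 0 without DMSO library 2 and 2 without DMSO library 3 or T4 library 1, and the 24 h count was 0 without any single library of that time.

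Of the pathway lists, 11 NMD core factors gave SMG6 (-0.83) and SMG8 (-1.24) lower at 6 h, where 16.0% of genes were called, and UPF1, the central helicase of the pathway, higher at 24 h (220 to 575 CPM, 1.40 ± 0.28, edgeR adjusted p = 0.0072; 5.24%). Of 10 known target genes 3 fell at 6 h, DDIT3 (128 to 23.8 CPM, -2.40), CHAC1 (-2.51) and PPP1R15A (-1.74). Of 25 genes on the list of splicing factors 6 rose at 6 h, CLK1, CLK4, SRSF10, TRA2A, U2AF2 and TMEM183A (1.30), the last of which is not known as a splicing factor, and HNRNPDL (-0.67) and SRSF3 (-0.97) fell. At 24 h HNRNPDL rose (1.18 ± 0.20, edgeR adjusted p = 0.0032) and SRSF9 fell (-0.72). No decapping or exon junction complex gene was called at either time. At 72 h 0 genes of any list were called (0.262%). The end of CLK1 had 6.88, 9.99 and 10.6 CPM with DMSO and 21.1, 21.4 and 14.3 with T4 at 6 h (1.08 ± 0.34, 0.042), a call lost under several alternatives. The end of SNRNP70 was not called at 6 h, with 196, 192 and 202 CPM against 236, 228 and 24.5, where the third T4 library stood apart.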

How the data were processed

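The authors deposited expected counts in 3 tables. The submitters' processing notes name Salmon (version 0.14.1) and hg38. Every table lists 94924 entries, of which 71604 are transcript ends and 23320 are genomic positions, and 98.3 to 98.8% of a table's entries hold whole values. How reads were assigned to strand is not given in the sources used here. Estimated counts were rounded. Of the transcript entries, 66115 matched GENCODE 29, which gave the transcript type and positions. A genomic position was counted to the gene of the last transcript entry listed above it, if chromosome and strand were the same. This link rests on the order of the entries. The 5489 transcript entries without a match were counted to no gene.

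Levels were tested with edgeR 4.0.16 in R 4.3.3 (quasi-likelihood, filterByExpr, TMM scaling, Benjamini-Hochberg over all entries, threshold 0.05), with all groups of a table in 1 fit. CPM were scaled by TMM. Shares were tested as an interaction of the end with the sum of all other entries of its gene. These sums include genomic positions, so the shares depend on how positions were linked to genes. Counts that moved with transcript entries only are given below. Both fits recovered planted changes in simulated data drawn from the count model that the tests assume. This checks the code and not how the tests behave on these libraries. Counting intervals and floors cover counting error only.

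The members and lists were chosen with earlier results of these data known. Named are the 10 highest means of a table, up to 8 called ends per direction and comparison with the largest change and no overlap, and members on a pathway list. Same-numbered libraries deviated together for LM2 and Par nuclei (correlations 0.629, 0.752 and 0.144) and for T4 and DMSO at 72 h (0.279, 0.626 and 0.130), and not in the other comparisons. Alternatives were DESeq2 1.42.0, limma 3.58.1, other scalings and filters, a replicate block, 2 groups alone and leaving out libraries.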

Additional observations from a re-analysis of the deposited data

How the results depend on the processing

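No named end's called change turned its sign, but the balance of higher and lower ends did with the scaling. This is given above for LM2 against Par in cytoplasm, the knockdown in nuclei, and nucleus against cytoplasm in LM2 and gHNRNPC. Counts of NMD ends called stayed within 1.5 times in 135 of 168 alternatives that kept all libraries or left out the nuclear libraries numbered 2, and in 133 of 180 that left out 1 library; the causes of the other changes were not tested. For the level, LM2 against Par in cytoplasm gave 120 calls with the 2 groups alone, 7 with library totals, 23 with no filter and 61 without both nuclear libraries numbered 2 (39 as reported); in nuclei it gave 1 with the 2 groups alone and 4 with library totals (7). T4 at 6 h gave 12 with the 2 groups alone and 68 with library totals (44), and at 24 h 86 with the 2 groups alone and 32 by DESeq2 (18). The difference between the fractions' knockdown effects gave 2 each by DESeq2, with library totals and with no filter (0). For the share, LM2 against Par in cytoplasm gave 18 with the 2 groups alone and 8 without both nuclear libraries numbered 2 (0), and nucleus against cytoplasm in Par gave 5 with the 2 groups alone, 17 by limma with a pseudocount of 5 and 26 without both nuclear libraries numbered 2 (10). The knockdown gave 5 in cytoplasm by limma with a pseudocount of 1, with a mean of 1 or more and with transcript entries only (10), and in nuclei 2 with a mean of 1 or more and 1 with transcript entries only (4). T4 at 6 h gave 0 with the 2 groups alone and with transcript entries only, 3 and 4 by limma with pseudocounts of 1 and 5, and 2 with a mean of 1 or more (1); at 24 h it gave 8 with the 2 groups alone and 0 by limma with a pseudocount of 1, with a mean of 1 or more and with transcript entries only (1). The replicate block changed the share count of T4 at 6 h from 1 to 2, where the numbers do not pair the libraries. In LM2 against Par nuclei, where they do, it gave 5 level calls against 7, and it moved no other count of calls by over 1.5 times.

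Leaving out 1 library gave these ranges of calls. For the level they were 7 to 43 and 3 to 10 for LM2 against Par in cytoplasm and nuclei, 56 to 97 and 27 to 41 for the knockdown, and 28 to 44, 7 to 13 and 0 to 0 for T4 at 6, 24 and 72 h. Nucleus against cytoplasm gave 130 to 164 in Par, 169 to 202 in LM2, 222 to 232 in gCTRL and 172 to 206 in gHNRNPC, and both differences of effects 0 to 0. For the share they were 0 to 2 and 0 to 1 for LM2 against Par, 4 to 16 and 0 to 3 for the knockdown, and 0 to 2, 0 to 0 and 0 to 0 for T4. Nucleus against cytoplasm gave 1 to 12 in Par, 27 to 38 in LM2, 23 to 32 in gCTRL and 12 to 25 in gHNRNPC, and both differences 0 to 0. Of 191 named level calls 131 were kept under every alternative, and of 75 named share calls 39. Library totals of 798052 to 2304700 reads limit the precision of ends near the mean of 10.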
